A study of Mus musculus with 25 samples.

Results

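Gpr33, P2ry14 and Xcr1 are G protein-coupled receptors, and Cadm1 is an adhesion molecule. The 4 genes were named by symbol among genes high in CD8α+ conventional dendritic cells (cDC) sorted from Peyer's patches, lymphoid follicles in the wall of the small intestine. They are 4 of 19938 genes with a single symbol on the array, and each was read by 1 transcript cluster of probes. The array signals of CD8α+ cDC against the other groups, before and after treatment, chose them. Those differences are therefore given as a description with no test. A lack of overlap between CD8α+ arrays and those of other cell types was favoured by that choice. Its share over all genes was not counted.

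Conventional dendritic cells carry antigen to T cells. The CD8α+ lineage, often called cDC1, is known for cross-presenting antigen to CD8+ T cells. Xcr1 is the receptor for the chemokine Xcl1, made by activated CD8+ T cells and natural killer cells, and is a defining surface marker of that lineage in mouse and human. P2ry14 is a Gi-coupled receptor for UDP-glucose and other UDP sugars, which cells release under stress. Gpr33 is an orphan receptor related in sequence to chemoattractant receptors, intact in mice and a pseudogene in most people. Cadm1 is an immunoglobulin-superfamily adhesion molecule of CD8α+ dendritic cells that binds Crtam on activated T and natural killer cells.

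The study hybridised 25 Affymetrix Mouse Gene ST arrays of sorted Peyer's patch phagocytes from female C57BL/6 mice aged 6 to 8 weeks, with 42 mice pooled for each replicate. No group carried an engineered allele. Untreated groups were CD8α+ cDC (3 arrays; SIRPα-, CD11b-), CD11b+ cDC (5 arrays; SIRPα+), double-negative or DN cDC (3 arrays; SIRPα+, CD11b-, CD8α-, CD4-), and LysoMac, lysozyme-expressing macrophages, without TIM-4 (3 arrays) or with it (3 arrays). The LysoMac gate took BST2+, CD4+ and SIRPα+ cells with little MHC class II. CD8α+ cDC (5 arrays) and CD11b+ cDC (3 arrays) were also sorted 9 h after mice were given R848, a TLR7 ligand, by mouth. The titles of the R848 arrays also say steady state, and the other labels give the treatment.

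The columns of the deposited table fell into 3 array sets with different row orders: 8 R848 arrays, 3 untreated CD8α+ arrays and 14 other untreated arrays. The row names fitted the R848 arrays, and the rows of both untreated sets were matched to them by their order and level. All 4 genes had an accepted row in both untreated sets, with neighbouring rows that correlated at 0.909 to 0.991 across sets. For Xcr1 among the 14 other untreated arrays, the matched run held 7 rows before it and 3 after it. A requirement of 5 rows on each side would leave that row out, and the setting of 3 was chosen after this was seen. Every comparison of R848 with untreated cells crosses array sets, so the treatment and the set cannot be told apart. CD8α+ against CD11b+ cDC after R848 lies within 1 set and rests on the deposited row names.

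Promoter windows of the 3 receptors are shown because the receptors moved in the same direction in CD8α+ cDC after R848. Cadm1 moved in that direction too, but had no window among the promoter sequences used. The windows come from RefSeq (GRCm38.p6) and run from 250 bases before to 50 bases after an annotated start, 5′ to 3′ on the gene's strand. All 3 genes lie on the minus strand. Xcr1 and Gpr33 have 1 annotated start each at chr9:123861980-123862279 and chr12:52028014-52028313. P2ry14 has 4, of which the outermost, chr3:59153443-59153742, is printed. Capitals mark matches to TGANTCA, the letters bound by AP-1 and BATF factors, or to GAGGAA, the core bound by the Ets factor PU.1, on either strand.
Xcr1: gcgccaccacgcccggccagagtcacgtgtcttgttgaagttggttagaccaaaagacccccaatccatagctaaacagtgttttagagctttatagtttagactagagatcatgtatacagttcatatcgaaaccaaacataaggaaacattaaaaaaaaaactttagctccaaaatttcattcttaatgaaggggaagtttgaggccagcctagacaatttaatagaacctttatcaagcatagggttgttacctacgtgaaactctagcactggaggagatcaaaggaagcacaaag
Gpr33: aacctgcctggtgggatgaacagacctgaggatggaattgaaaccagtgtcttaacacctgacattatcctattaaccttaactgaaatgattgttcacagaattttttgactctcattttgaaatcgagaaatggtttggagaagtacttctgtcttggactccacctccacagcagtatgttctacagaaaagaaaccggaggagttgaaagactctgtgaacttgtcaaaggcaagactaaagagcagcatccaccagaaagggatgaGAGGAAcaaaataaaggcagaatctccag
P2ry14: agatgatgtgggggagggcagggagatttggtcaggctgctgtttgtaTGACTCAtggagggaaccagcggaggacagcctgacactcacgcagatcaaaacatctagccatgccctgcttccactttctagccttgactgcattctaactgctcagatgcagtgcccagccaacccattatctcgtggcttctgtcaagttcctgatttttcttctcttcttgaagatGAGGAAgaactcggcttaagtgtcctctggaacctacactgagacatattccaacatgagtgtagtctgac
The Xcr1 window held none of the motifs searched. The Gpr33 window held 1 GAGGAA, 21 bases after the start, and the printed P2ry14 window held TGACTCA at 202 and GAGGAA at 21 bases before the start. Another P2ry14 window held TGAATCA, and each of the other 3 held GAGGAA on the reverse strand. The windows at chr3:59131279-59131578 and chr3:59131069-59131368 overlap, and their GAGGAA match is the same site. A pair of GAAA motifs on one strand with 2 bases between them, the element bound by interferon regulatory factors, was in none of them. Of 32544 RefSeq promoter windows of the same length, 7.79% held TGANTCA, 28.1% held GAGGAA and 3.45% held the GAAA pair, counting both strands. A match is a description of these letters and does not show binding.

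In untreated mice Xcr1 was far higher in CD8α+ cDC than in any other group. On the log2 signal scale it read 10.95, 10.95 and 10.84 on the 3 untreated CD8α+ arrays. On the 5 untreated CD11b+ arrays it read 4.26, 3.87, 3.66, 3.80 and 3.96. DN cDC read 3.75, 3.65 and 3.89. The CD8α+ arrays lay about 7 units above the other cDC arrays with no overlap. TIM-4- LysoMac read 3.62, 3.39 and 3.86, and TIM-4+ LysoMac 3.48, 3.52 and 3.37. The difference between CD8α+ and CD11b+ cDC was 7.00, a 128-fold ratio. The means of CD11b+ cDC before and after R848, DN cDC and both LysoMac groups lay between 3.46 and 3.91, and each of these groups overlapped the next in order. RMA gives no detection call, so these low signals set no floor and the ratio may understate the difference.

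Gpr33 had the same order of groups, save that CD11b+ cDC after R848 stood above the other low groups. It read 9.46, 9.12 and 8.89 in untreated CD8α+ cDC. In untreated CD11b+ cDC it read 3.36, 3.45, 3.43, 3.39 and 3.62. The ranges did not overlap, and the difference of 5.71 is a 52.2-fold ratio. DN cDC read 3.59, 3.29 and 3.46. TIM-4- LysoMac read 3.33, 3.14 and 3.50, and TIM-4+ LysoMac 3.22, 3.18 and 3.23. The untreated CD11b+, DN and LysoMac groups overlapped in sequence, with means of 3.21 to 3.45.

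P2ry14 was high in CD8α+ cDC and equally placed in LysoMac. It read 8.84, 9.08 and 8.69 in untreated CD8α+ cDC. TIM-4- LysoMac read 8.42, 8.72 and 8.49, and TIM-4+ LysoMac 8.77, 9.16 and 8.91. These 3 groups overlapped in sequence. Untreated CD11b+ cDC read 3.89, 3.67, 4.17, 4.71 and 5.21, and DN cDC 4.63, 3.89 and 4.85. CD8α+ cDC exceeded CD11b+ cDC by 4.54, a 23.3-fold ratio, with no overlap. They differed from TIM-4- LysoMac by 0.33 and from TIM-4+ LysoMac by -0.08, and the latter turned to 0.21 with arrays shifted to a common median and to 0.14 with cyclic loess. The macrophage markers Mertk, Fcgr1, Cx3cr1 and Adgre1, of 8 listed on the array those with values in every group, had a mean level of 4.20 to 4.29 on the untreated CD8α+ arrays and of 7.58 to 7.92 on the LysoMac arrays. The mean of these markers was lowest in untreated CD8α+ cDC, though Mertk and Adgre1 each had a lower mean in another group. Fcgr1 was at 4.30 in both LysoMac groups, below DN cDC at 5.06. The part of macrophages in the P2ry14 level of CD8α+ cDC was not tested.

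The spread of P2ry14 in untreated CD11b+ cDC (SD 0.63, n = 5) was the widest of the 4 genes in any group. The 4 macrophage markers had mean levels of 5.28, 5.23, 5.06, 5.09 and 5.32 on the same 5 arrays. The array with the highest P2ry14 also had the highest marker level, while the array with the second highest P2ry14 had the second lowest. The part of macrophages in this spread was not tested.

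Cadm1 was highest in CD8α+ cDC, with DN cDC next among untreated cells. It read 8.95, 8.86 and 9.12 in CD8α+ cDC. DN cDC read 6.11, 6.71 and 5.70, and CD11b+ cDC 5.02, 4.99, 4.96, 4.84 and 5.03. These 3 groups did not overlap. TIM-4- LysoMac read 4.67, 4.60 and 5.21, and TIM-4+ LysoMac 4.80, 4.70 and 4.98. CD8α+ cDC exceeded CD11b+ cDC by 4.01 (16.1-fold) and DN cDC by 2.80 (6.98-fold).

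**Figure D1:**
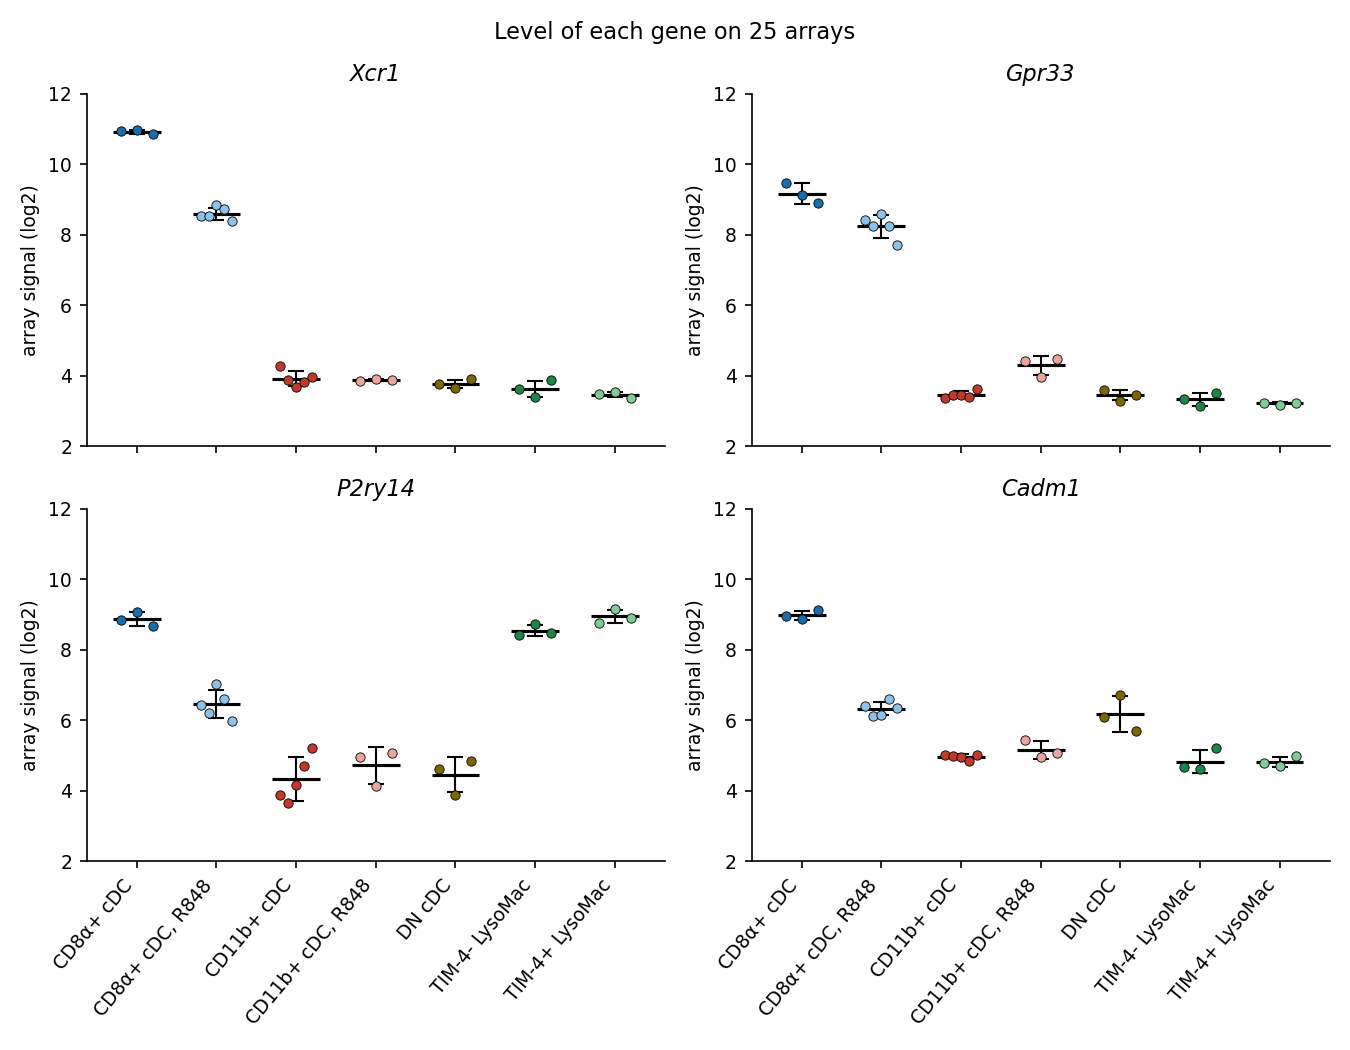
The array signal (log2) of Xcr1, Gpr33, P2ry14 and Cadm1 is plotted for 7 groups, with a point for each of 25 arrays, a line at the group mean and bars of 1 SD. Xcr1 reads 10.84 to 10.95 in untreated CD8α+ cDC, while P2ry14 is high in untreated CD8α+ cDC and in both LysoMac groups.

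The sorted CD8α+ cells had high levels of most markers of their lineage, with exceptions. The 6 listed cDC1 markers with values in every group had a mean level of 9.30 to 9.40 on the untreated CD8α+ arrays, against 7.24 to 7.51 on the untreated CD11b+ arrays. Irf8, Naaa, Itgae and Tlr12 were highest in CD8α+ cDC. Batf3 had a mean of 8.39 there against 8.90 in CD11b+ and 8.55 in DN cDC, and Septin3 had 5.42 against 6.01 in DN cDC. Clec9a and Cd8a had no accepted row among the other untreated arrays and are not in that level. Replicates of one group correlated at 0.979 or higher over all genes.

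The first tested comparison asked how CD8α+ cDC changed 9 h after R848. All 4 genes were lower: Cadm1 6.26-fold, P2ry14 5.34-fold, Xcr1 5.00-fold and Gpr33 1.89-fold. In this comparison 15.8% of 16223 genes tested were called lower and 43.7% higher at an adjusted p under 0.05 (limma, Benjamini-Hochberg over all genes tested), 59.5% in all. A call alone is therefore weak information here, and the sizes are given with their ranks. The CD8α+ arrays before and after R848 also served to choose the genes, so the p-values and ranks below are not free of that choice. In untreated CD8α+ cDC the 4 genes stood above 94.9% to 99.2% of genes, with more room to fall than most.

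Xcr1 read 8.53, 8.51, 8.82, 8.71 and 8.39 on the 5 CD8α+ arrays after R848. Every one lay below the lowest untreated array at 10.84. The difference was -2.32 ± 0.09 (SE; limma adjusted p = 1.19e-08), at rank 134 from the lowest of 16223 genes.

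Cadm1 read 6.40, 6.14, 6.15, 6.60 and 6.36 after R848. These arrays were all more than 2 units below the untreated ones. The difference was -2.65 ± 0.13 (limma adjusted p = 5.80e-08), at rank 86. Cadm1 in CD8α+ cDC after R848 overlapped the untreated DN cDC.

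P2ry14 read 6.43, 6.21, 7.03, 6.61 and 5.98 after R848. None reached the lowest untreated array at 8.69. The difference was -2.42 ± 0.25 (limma adjusted p = 1.87e-05), at rank 112.

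Gpr33 read 8.40, 8.25, 8.58, 8.25 and 7.71 after R848. The highest of these lay below the lowest untreated array at 8.89, so the groups did not overlap, but the gap was the narrowest of the 4 genes. The difference was -0.92 ± 0.20 (limma adjusted p = 0.00245), at rank 960. Arrays of both groups did not overlap for 57% of all genes, and lay lower after R848 without overlap for 14.7%.

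Within the R848 group, replicate 5 was the lowest array for Xcr1, Gpr33 and P2ry14, and replicate 3 the highest for the same genes. Cadm1 did not follow that order, with replicate 4 highest and replicate 2 lowest. The median difference over all genes was 0.18. With arrays shifted to a common median that median became 0.015 and the calls split into 3633 higher and 3687 lower, and with cyclic loess into 3705 and 3740. With the common median the differences of Xcr1, Gpr33, P2ry14 and Cadm1 were -2.49, -1.09, -2.58 and -2.81, and with cyclic loess -2.46, -1.005, -2.43 and -2.66, all still called.

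Markers of other cells moved in the same comparison, where 43.7% of all genes were called higher. All 3 tested B cell markers of 5 on the array rose (Cd79a, a chain of the B cell receptor, by 3.85 ± 0.40), and their mean level went from 4.33 to 5.01 on untreated arrays to 6.40 to 7.39 after R848. All 5 tested T cell markers of 7 rose (Cd3g by 1.93 ± 0.52). Gzma, a granzyme of cytotoxic lymphocytes, rose by 3.08 ± 0.51 as 1 of 5 tested natural killer and innate lymphoid markers, of which 1 other, Klrd1, fell. Of 7 tested macrophage markers of 8 on the array, 3 rose and 1 fell, with a median of 0.94. Among all genes 43.7% rose and 15.8% fell. The macrophage marker C1qb rose by 1.62 ± 0.46 and Cx3cr1 by 0.94 ± 0.29, while Adgre1 fell by 0.54 ± 0.21. Both tested plasmacytoid markers of 6 on the array rose, Ly6d by 3.90 ± 0.47 and Pacsin1 by 0.31 ± 0.11, beside a median of 0.18 for all genes. Siglech, a further listed plasmacytoid marker, was not tested and had a mean of 4.42 after R848. Ly6d had means of 8.19 in CD8α+ and 10.10 in CD11b+ cDC after R848, where Cd79a had 7.86 and 9.37. Which cells the Ly6d signal came from was not tested. The same B cell genes had mean levels of 5.83 to 6.57 and 8.02 to 8.70 in CD11b+ cDC before and after R848, where Xcr1, P2ry14 and Cadm1 were not called. Xcr1, P2ry14 and Cadm1 were already low there before treatment, so a fall had little or no room to appear and nothing is read from this. In CD8α+ cDC Cd8a, which T cells can also express, rose by 0.47 ± 0.16 and the lineage factor Batf3 differed by 0.13 ± 0.15 (limma adjusted p = 0.464). The part of RNA from these other cells in the lower receptor signals was not tested. In bulk samples fewer cells of a type and less RNA per cell cannot be told apart.

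The cDC1 markers fell with the 4 genes. Of 12 tested markers of 16 on the array, 10 were lower and 1 higher, with a median of -1.62 against 0.18 for all genes. Among all genes 15.8% were lower and 43.7% higher. Itgae, the integrin chain CD103, fell by 4.10 on the log2 scale, Tlr3, a sensor of double-stranded RNA, by 3.92, the lysosomal amidase Naaa by 3.78 and the adaptor Clnk by 2.82. Clec9a, a receptor for dead cells, differed by -1.50 ± 0.21, and Irf8, a transcription factor of the lineage, by -1.45 ± 0.10. Xcr1, P2ry14 and Cadm1 thus had differences between those of Irf8 and Clnk in size.

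Other receptors of the same families went both ways in CD8α+ cDC. Of 11 P2Y and related receptors tested, 4 rose and 5 fell, with a median of 0.04. Among all genes 43.7% rose and 15.8% fell, with a median of 0.18. P2ry6, a receptor for UDP, had the largest change at -3.56 ± 0.28, and P2ry14 came next. Gpr171 (-2.32 ± 0.18) and Gpr34 (-2.08 ± 0.17), a lysophosphatidylserine receptor, also fell, while P2ry10, likewise a lysophosphatidylserine receptor, differed by 1.09.

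Among 18 chemokine receptors tested of 20 on the array, 7 rose and 3 fell, shares close to the 43.7% and 15.8% of all genes, with a median of 0.27 against 0.18. The 3 that fell were Xcr1, Cxcr3, which guides cells to interferon-induced chemokines, and Ccr9, the receptor for the small-intestinal chemokine Ccl25. Cxcr3 differed by -4.33 ± 0.15 and Ccr9 by -3.49 ± 0.11. Ccr7, which guides dendritic cells to T cell zones, rose by 2.84 ± 0.18. Of 6 tested chemoattractant receptors related to Gpr33, 2 fell, Gpr33 and Ptgdr2 (-0.46 ± 0.12), a prostaglandin D2 receptor, and 1 rose, the leukotriene B4 receptor Ltb4r1 (0.39 ± 0.12).

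Of 11 tested genes of the Cadm and nectin family and their receptors, 7 rose and 2 fell, with a median of 0.43. The shares of all genes were 43.7% and 15.8%, with a median of 0.18. Cadm1 fell, while Pvr, a nectin-like ligand of Cd226 and Tigit, rose by 3.53 ± 0.18 and the adhesion molecule Nectin2 by 1.23 ± 0.11. Nectin4 rose by 1.01 ± 0.10. Crtam, the partner of Cadm1, differed by 0.31 ± 0.08 (limma adjusted p = 0.0061). Its means of 3.66 before and 3.96 after R848 were low signals, below the median gene of every CD8α+ array, the lowest of which was 4.49.

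Of 11 tested genes that make or carry UDP sugars, the P2ry14 ligands, 7 rose and 3 fell, with a median of 0.56. Among all genes 43.7% rose and 15.8% fell, with a median of 0.18. Those shares depend on the scaling, and the list counts were made with the deposited scaling alone. Uap1 and Gfpt1, enzymes on the path to UDP-N-acetylglucosamine, rose by 2.00 ± 0.11 and 1.43 ± 0.08. Gnpnat1 of the same path rose by 1.11 ± 0.23, and the phosphoglucomutase Pgm1 differed by -1.02 ± 0.20. Of 11 tested Gi signalling genes 6 rose and 3 fell, with a median of 0.45, beside the same shares of all genes. Rgs18 and Rgs1, both of which shorten Gi signals, differed by -1.84 ± 0.23 and 1.81 ± 0.11.

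In CD11b+ cDC the 4 genes were low before treatment, as their choice required, so that a fall like that in CD8α+ cDC had little or no room to appear. After R848 39.3% of 15955 genes were called, 16.8% higher and 22.5% lower. Of the 4 genes Gpr33 was called, in the higher direction. Gpr33 read 4.42, 3.96 and 4.47 after R848. The lowest of these lay above the highest untreated CD11b+ array at 3.62. Arrays did not overlap in either direction for 38.1% of genes, and with a common median the calls over all genes split into 3632 higher and 2847 lower. The difference was 0.83 ± 0.15 (limma adjusted p = 0.000196), a 1.78-fold ratio at a level still far below that of CD8α+ cDC. Xcr1 on those arrays read 3.85, 3.89 and 3.88, within the range of untreated CD11b+ cDC, whose Xcr1 row had the short matched run given above. The part of CD8α+ cells in the Gpr33 value was not tested.

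P2ry14 read 4.97, 4.12 and 5.07 in CD11b+ cDC after R848 and overlapped the untreated arrays. Its difference of 0.39 ± 0.31 had a 95% interval of -0.25 to 1.04. Cadm1 read 5.44, 4.96 and 5.08, and its difference of 0.19 ± 0.18 had an interval of -0.18 to 0.57. For Xcr1 the difference was -0.04 ± 0.12, with an interval of -0.30 to 0.22. None of these 3 was called (limma adjusted p = 0.330, 0.420 and 0.818).

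In CD11b+ cDC the P2Y list had 1 of 10 tested members higher and 2 lower (median -0.14), among them P2ry6 at -2.17 ± 0.27. Among all genes 16.8% were higher and 22.5% lower. The chemokine receptors had 3 of 19 higher and 5 lower (median -0.04), close to the shares of all genes. The Cadm and nectin family had 3 of 8 higher and 0 lower (median 0.19), led by Pvr at 2.03 ± 0.21. The UDP sugar genes had 4 of 10 higher and 0 lower, led by Uap1 at 1.41 ± 0.11 (median 0.12, against -0.03 for all genes). Xcl1, the ligand of Xcr1, differed by -2.12 ± 0.47 in CD11b+ cDC (limma adjusted p = 0.0013), where Gzma, another product of cytotoxic lymphocytes, differed by -3.33 ± 0.66. In CD8α+ cDC Xcl1 differed by -0.48 ± 0.29 (limma adjusted p = 0.172), while Gzma rose as given above.

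The CD8α+ response minus the CD11b+ response equals the lead of CD8α+ over CD11b+ cDC after R848 minus the untreated lead. Those leads chose the genes, so this value is a description with no test, and its direction was largely set by the choice. It was -2.84 for Cadm1, -2.81 for P2ry14, -2.28 for Xcr1 and -1.75 for Gpr33. Gpr33 was the gene of the 4 called in both subsets, lower in CD8α+ and higher in CD11b+ cDC. P2ry14 and Cadm1 also had differences of opposite sign, at 0.39 and 0.19 in CD11b+ cDC, where they were not called. Over all 13635 genes with values in every set, limma called 32.9%, 5.95% more negative and 26.9% more positive in CD8α+ cDC, from which nothing is read about the 4 genes. With arrays shifted to a common median those calls split into 1292 more positive and 1604 more negative, and with cyclic loess into 1537 and 1634.

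**Figure D2:**
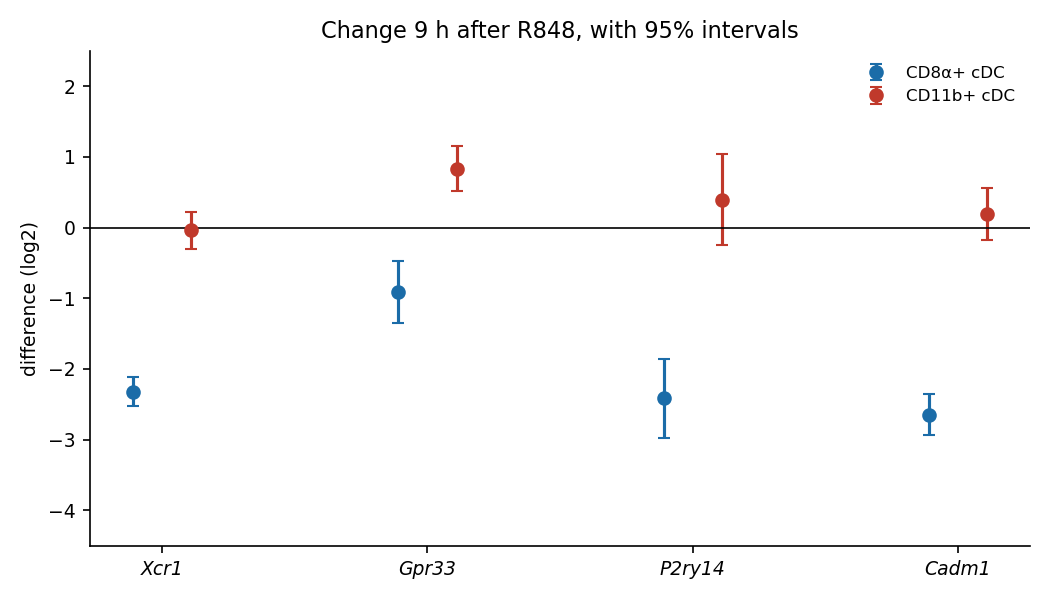
The difference 9 h after R848 (log2) is plotted for each gene with its 95% interval, for CD8α+ cDC and for CD11b+ cDC. All 4 intervals of CD8α+ cDC lie below 0, and Gpr33 in CD11b+ cDC lies above 0 at 0.83.

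After R848, on arrays of a single set, the lead of CD8α+ over CD11b+ cDC was smaller than that between the untreated groups, whose arrays lie in different sets. For Xcr1 the ratio was 26.4-fold after R848 (a difference of 4.72), and for Gpr33 15.5-fold (3.95). For P2ry14 it was 3.32-fold (1.73) and for Cadm1 2.25-fold (1.17). No array of one group overlapped the other for any of these genes, as their choice favoured. The share of all genes without overlap was not counted here. Xcr1 and Gpr33 still set both cDC groups far apart 9 h after R848, while P2ry14 and Cadm1 did so by little.

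Among untreated cells of one array set, DN cDC differed from CD11b+ cDC in Cadm1 alone of the 4 genes. Of 15955 genes 3.18% were called, 1.93% higher and 1.25% lower. Cadm1 was higher in DN cDC by 1.21 ± 0.19 (2.30-fold, limma adjusted p = 0.00212), and the arrays given above did not overlap, as for 9.6% of all genes. The 508 calls over all genes fell to 292 without DN replicate 1 and to 319 without DN replicate 2, while Cadm1 stayed called, at 0.93 to 1.44 with any single array left out. With a common median the calls split into 238 higher and 241 lower around a median of -0.11. Xcr1 differed by -0.15 ± 0.13 (95% interval -0.43 to 0.14), Gpr33 by -0.00 ± 0.10 (-0.21 to 0.21) and P2ry14 by 0.13 ± 0.30 (-0.52 to 0.77), none of them called (limma adjusted p = 0.646, 0.990 and 0.875).

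Markers of other cells moved with Cadm1 in this comparison, where 1.93% of all genes were called higher. Of 5 tested stromal and endothelial markers of 6 on the array, 4 were higher in DN cDC, with a median of 0.85. The endothelial cadherin Cdh5 was higher by 2.43 ± 0.31 and the matrix gene Dcn by 1.72 ± 0.12. Their mean level, over 4 genes with values in every group, was 5.65, 5.43 and 5.47 on the 3 DN arrays and 3.89 to 4.34 on the CD11b+ arrays. The DN array with the highest Cadm1, replicate 2 at 6.71, had the lowest of the 3 stromal levels. None of the 6 tested epithelial markers was called, with a median of 0.69. On the CD8α+ arrays, where Cadm1 was highest, the stromal level was 3.87 to 3.96. The part of stromal cells in the DN value was not tested.

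LysoMac were compared with CD11b+ and DN cDC in the same array set, where 28.6% of 15955 genes were called, 13.2% higher and 15.5% lower. P2ry14 was higher in LysoMac by 4.35 ± 0.23 (20.4-fold, limma adjusted p = 1.82e-09). All 6 LysoMac arrays lay above all 8 cDC arrays, the lowest at 8.42 and the highest cDC array at 5.21. For this comparison the share of all genes without overlap was not counted. Cadm1 was lower in LysoMac with a difference of -0.74 ± 0.14 (limma adjusted p = 0.000907), with TIM-4- replicate 3 at 5.21 and TIM-4+ replicate 3 at 4.98 inside the cDC range. The cDC side of this value averages CD11b+ cDC at a mean of 4.97 and DN cDC at 6.17, with LysoMac at 4.83 in both groups, so that DN cDC, whose arrays also had the raised stromal markers, carried most of it. Xcr1 differed by -0.30 ± 0.10 (limma adjusted p = 0.0340) at signals near the bottom of its range. That call was lost without any 1 of CD11b+ replicate 5, DN replicates 1 and 3, TIM-4- replicates 1 and 2 and TIM-4+ replicates 1 and 3, with limma adjusted p = 0.0515 to 0.0977, and its row is left out altogether where runs of 5 rows are required. Gpr33 differed by -0.18 ± 0.07 and was not called (limma adjusted p = 0.0820), though it was called without DN replicate 2 (0.0451) or TIM-4- replicate 3 (0.0331).

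P2ry14 was one of several P2Y receptors that set LysoMac apart. Of 10 tested, 5 were higher and 2 lower in LysoMac, with a median of 0.50 against 0.00 for all genes. The shares of all genes were 13.2% and 15.5%. P2ry13 and P2ry12, both receptors for ADP, were higher by 3.49 ± 0.14 and 3.10 ± 0.15. P2ry10 was lower in LysoMac with a difference of -5.10 ± 0.12, and Gpr171 with -3.33 ± 0.14.

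In the RefSeq annotation P2ry14 lies on chromosome 3 within Med12l, near Gpr171, P2ry13 and P2ry12. These neighbours did not move as one. In LysoMac P2ry14, P2ry13 and P2ry12 were high and Gpr171 low, while in CD8α+ cDC after R848 P2ry14 and Gpr171 were lower by similar sizes, P2ry12 differed by -0.60 ± 0.17 and P2ry13 by 0.04 ± 0.26 (limma adjusted p = 0.909). Med12l differed by 0.35 ± 0.09 in LysoMac (limma adjusted p = 0.00621). The neighbours were chosen by position, and the labels describe double-stranded targets, so sense and antisense signal of the overlapping pair may not be told apart.

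**Figure D3:**
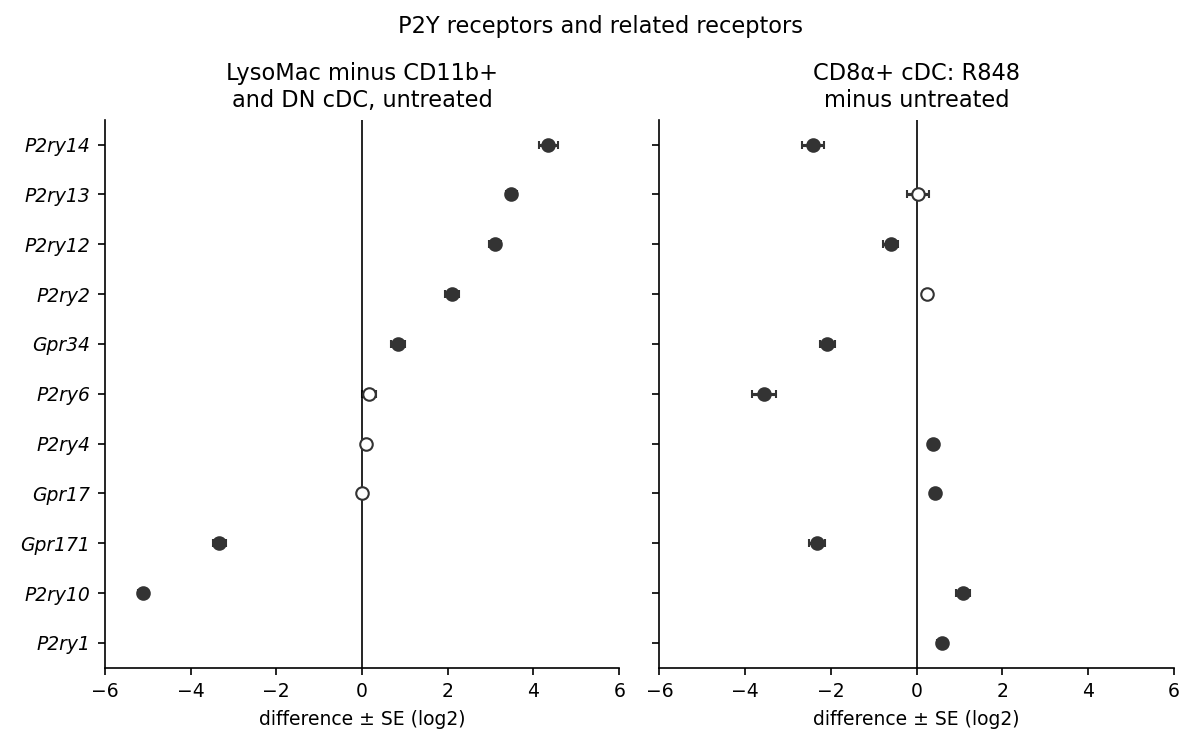
Differences with SE (log2) are plotted for 11 P2Y and related receptors, for LysoMac minus CD11b+ and DN cDC on the left (P2ry1 had no accepted row there) and for the R848 response of CD8α+ cDC on the right. Filled points passed the test, and P2ry14 is at 4.35 on the left and at -2.42 on the right.

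Of 4 chemoattractant receptors tested, Gpr33 among them, 2 were higher in LysoMac and 0 lower. In this comparison 13.2% of all genes were higher and 15.5% lower. The complement receptors C5ar1 and C5ar2 were higher by 4.74 ± 0.18 and 0.96 ± 0.08. Of 19 chemokine receptors 2 were higher, the fractalkine receptor Cx3cr1 (4.14 ± 0.10) and the monocyte receptor Ccr2 (3.90 ± 0.10), and 10 lower, among them Ccr7 (-3.95 ± 0.25) and Ccr6 (-2.41 ± 0.12). In the Cadm and nectin family 2 of 8 were higher and 2 lower, the lower ones Cadm1 and Nectin1 (-2.53 ± 0.18).

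TIM-4+ and TIM-4- LysoMac did not differ by test in any of the 4 genes, and 0.288% of 15955 genes were called between them, 0.094% higher in TIM-4+ cells and 0.194% lower. P2ry14 was higher in TIM-4+ cells by 0.40 ± 0.34, with a 95% interval of -0.32 to 1.13 (limma adjusted p = 1.00). Its 3 TIM-4+ arrays, from 8.77, lay above its TIM-4- arrays, up to 8.72, by a narrow margin. Arrays of these groups did not overlap for 10.8% of all genes. The other differences were -0.17 for Xcr1, -0.12 for Gpr33 and -0.00 for Cadm1. Of the 4 genes none reached an unadjusted p under 0.05, the lowest being 0.249.

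The genes closest in pattern were taken by Pearson correlation of the 7 group means, among 1363 genes whose group means spanned at least 2 log2 units. The points share arrays and array sets, and the correlations are a description. Genes with no accepted row in an untreated set, Clec9a and Cd8a among them, could not be ranked. Gpr33 was the closest of the ranked genes to Xcr1 (0.987). Next came the palmitoyltransferase Zdhhc2 (0.985), the mitochondrial carrier Slc25a24 (0.978), the collagen hydroxylase P3h2 (0.958) and the lectin Clec12a (0.957). Closest to Gpr33 were Slc25a24 (0.996), the centrosomal gene Alms1 (0.988), Xcr1 (0.987), the growth factor receptor Met (0.986) and the scaffold gene Erc1 (0.978). Over the 25 single arrays Xcr1 and Gpr33 correlated at 0.984. Both were chosen for high signals in CD8α+ cDC before and after R848, so their likeness was largely set by the choice.

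P2ry14 stood apart from the other receptors, at 0.354 with Xcr1 and 0.294 with Gpr33. Closest to it were the phosphatase Ubash3b (0.996), the lysosomal enzymes Ppt2 (0.992) and Galc (0.987), Fnip2 (0.977) and the pore-forming Mpeg1 (0.963), with high means in both CD8α+ cDC and LysoMac. Cadm1 was at 0.900 with Xcr1, at 0.848 with Gpr33 and at 0.272 with P2ry14. Closest to Cadm1 were the ganglioside synthase St3gal5 (0.987), the receptor Acvrl1 (0.984), the lipid phosphatase Plpp1 (0.979), the sphingomyelin synthase Sgms1 (0.968) and Ctla2b (0.948). These patterns rest on 7 points, and for Xcr1 and Gpr33 both CD8α+ groups carry most of the range.

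**Figure D4:**
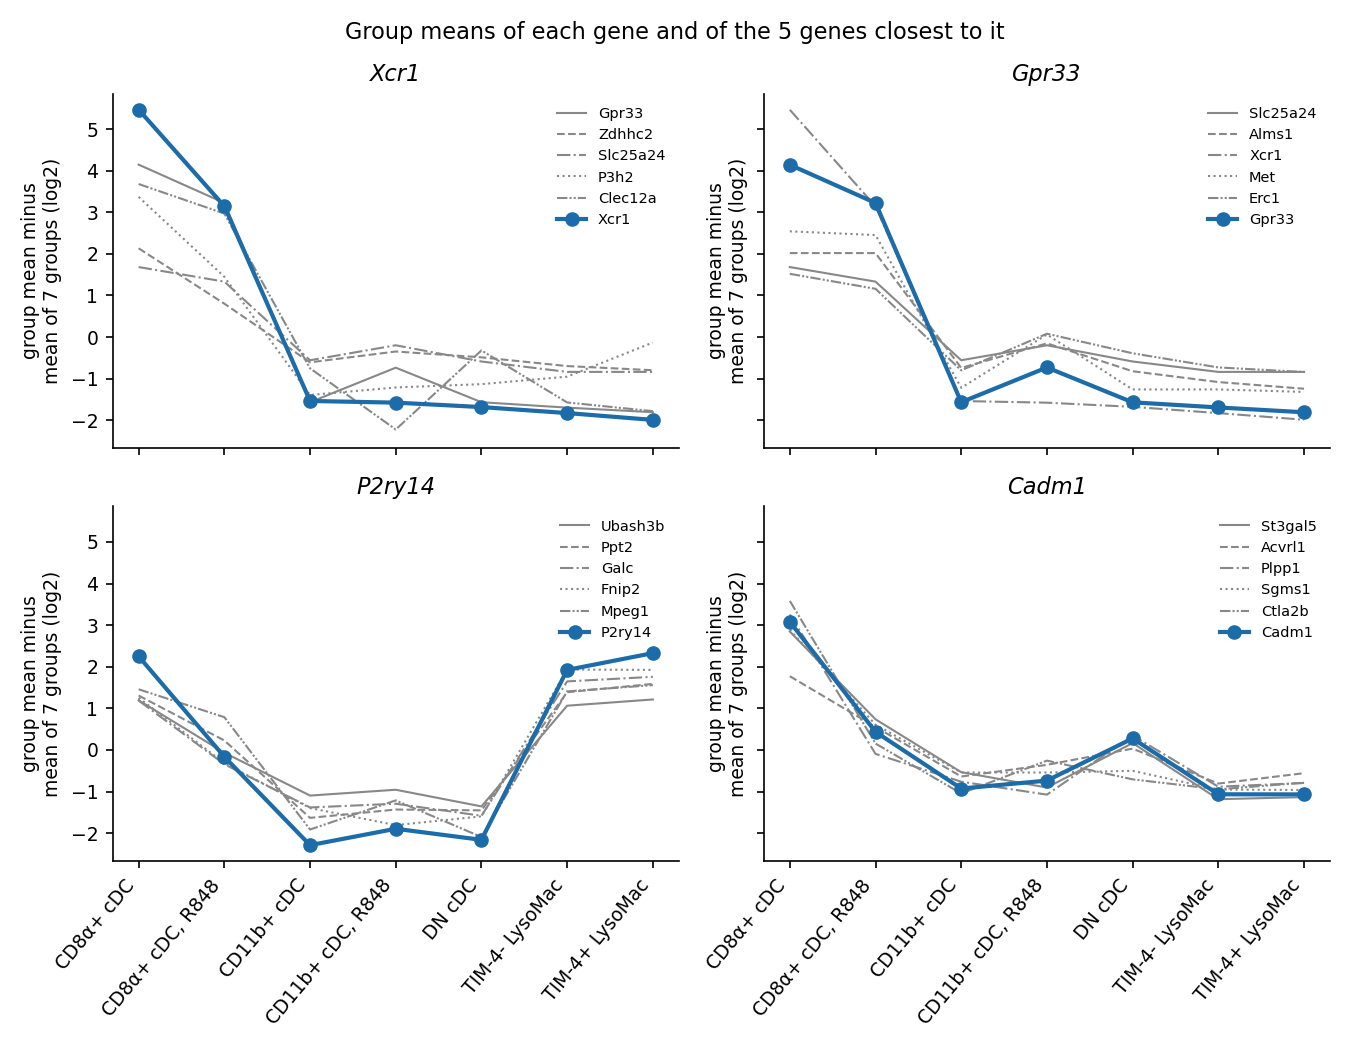
Group means (log2), each gene set to its own mean over 7 groups, are plotted for the 4 genes in blue and for the 5 genes closest to each in grey. Xcr1 and Gpr33 are high in both CD8α+ groups, P2ry14 is high in untreated CD8α+ cDC and in LysoMac, and Cadm1 is high in untreated CD8α+ cDC.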

How the data were processed

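Members and gene lists were chosen with earlier results of these data known. Per the submitters' processing notes, the authors deposited log2 signals made with Affymetrix Expression Console 1.4.1 by RMA. A joint normalization of all arrays is not given in the sources used here. Per the labels' protocols, 2 to 20 ng of RNA were amplified. The number of arrays, 25, limits the precision, and the array labels call the replicates independent.

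Rows of both untreated sets were aligned to the R848 arrays by dynamic programming with numpy 2.4.6 and numba 0.67.0, using mean levels of the same cell type before and after R848. This can favour rows with small responses. Of 35556 rows, 6617 before the first annotated row were left out and 28939 aligned. A row was accepted where 3 gap settings agreed, 3 rows on each side kept the same offset and the 10 neighbours on each side correlated at 0.7 or more. That held for 21967 rows (75.9%) of the 14 other untreated arrays and 22554 (77.9%) of the CD8α+ arrays, against 223 and 102 with rows rolled out of place. Array correlations were at least 0.939 within sets and 0.019 to 0.052 across sets before alignment. Tested on simulated data, wrong partners made up at most 0.845% of accepted rows. The simulation aligned CD8α+ to CD11b+ cDC after R848, with 500 rows taken out and 500 put in. Both groups lie in a single array set, so the rate across sets may differ and was not measured.

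Genes came from rows with 1 symbol in the platform annotation (21789 probes, with 1621 of several symbols left out and 12146 rows unnamed). The difference of both R848 responses was fitted for all genes but gives no test of the 4 genes, whose choice used its parts. Groups were compared with limma 3.58.1 (lmFit and eBayes, R 4.3.3), adjusted over all genes tested, threshold 0.05. Tested on simulated data of 13635 genes, 67 (difference of responses) to 97 (LysoMac) of 100 genes changed 2-fold were called, and 100 of 100 changed 4-fold. Named list genes were up to 4 called members with the largest difference in each comparison. Ligands, chromosomal neighbours, Cd8a, Clec9a, Irf8 and Batf3 were named after their values were seen. Alternatives covered scaling, filters, array weights, the replicate block, all arrays in one fit, left-out arrays and row acceptance.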

Additional observations from a re-analysis of the deposited data

Results flagged for a closer look

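The R848 responses of CD8α+ and CD11b+ cDC differed for all 4 genes, with a CD8α+ response minus CD11b+ response of -2.28 for Xcr1, -1.75 for Gpr33, -2.81 for P2ry14 and -2.84 for Cadm1. These values are the lead of CD8α+ over CD11b+ cDC after R848 minus the untreated lead, and those leads chose the genes. They are therefore given as a description, and no test supports them. Gpr33 was lower in CD8α+ and higher in CD11b+ cDC on every array after R848 than on any untreated array of the same subset. The treatment and the array set cannot be told apart in these values. No array lay far from the others of its group, over 8 sets of values (the 4 genes in both groups of 5 arrays).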

How the results depend on the processing

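The calls of the 4 genes in CD8α+ cDC after R848, of Gpr33 in CD11b+ cDC, of Cadm1 in DN cDC, and of P2ry14 and Cadm1 in LysoMac held under every alternative that gave a value. For the R848 response of CD8α+ cDC the ranges over left-out arrays were -2.38 to -2.27 for Xcr1, -1.05 to -0.76 for Gpr33, -2.56 to -2.30 for P2ry14 and -2.71 to -2.57 for Cadm1. The replicate numbers of the titles were not used as pairs. Arrays of the same number had low correlations, -0.23 to 0.18 over all comparisons. For DN against CD11b+ cDC these were 0.018 to 0.124, with a median of -0.02 for other pairs. For TIM-4+ against TIM-4- LysoMac they were 0.039 to 0.129, with a median of -0.031. Whether samples of one number share a pool was not tested. With the number as a replicate block the Xcr1 difference in LysoMac lost its call (-0.31, limma adjusted p = 0.0553), and no other call of the 4 genes changed. Gpr33 in LysoMac was called with array weights (limma adjusted p = 0.0318). Counts over all genes changed more. With genes above the median level only, the calls were 4833 for CD8α+ cDC after R848 and 3967 for CD11b+ cDC, with fewer genes tested, against 9659 and 6272. The difference of responses, 4485 calls, had 2896 with a common median, 2399 with the filter and 6836 with rows accepted on 1 alignment setting, where more genes are tested. The DN comparison, 508 calls, had 292 to 552 without a single array. TIM-4+ against TIM-4- LysoMac, 46 calls, had 29 to 42 without a single array, 78 with array weights and 71 with all 25 arrays. The cause of the other changes was not tested. Runs of 5 rows, an alternative chosen after the values were seen, gave no value for Xcr1 in the comparisons that use the other untreated arrays. Its level there rests on the looser acceptance.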
